A study of Mus musculus with 454 samples.

Results

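Lcn2 and 7 other genes that inflammation is known to induce in glia and blood vessels were followed through the 4 brain regions of the series: Serpina3n, Osmr, Steap4, Cebpd, Socs3, Icam1 and Ch25h. They are 8 of the 43346 genes in the table. They were chosen by their levels with chronic cocaine against chronic saline in libraries whose title numbers run from 1200 upwards, and by their correlation with Lcn2 over libraries, so those values are given as a description with no test. The study, by its title, concerns adolescent social isolation, the medial amygdala and sex differences in reward. RNA-seq was run on mouse brain, with 115 libraries labelled AMY (amygdala), 112 labelled Nac (nucleus accumbens), 112 labelled PFC (prefrontal cortex) and 115 labelled VTA (ventral tegmental area). Each library came from a socially isolated (SI) or group-housed (G) female or male with a cocaine dose of 7.5 mg/kg or 0 mg/kg, on a chronic (CHR) or acute (A) schedule, which makes 64 groups of 5 to 8 libraries. The groups at 0 mg/kg are called saline here, although the labels name the dose alone. The labels used here give no strain, no age and no transgene, and do not say that libraries are separate animals, so p-values measure the spread between these libraries.

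A library is titled by a letter for its region (A, N, P or V) and a number, so that A1210 and V1210 are the AMY and VTA libraries of a single number. There are 129 numbers, 86 of them present in every region with the same labels, and they fall into 4 series that do not hold the same treatments. Counts and values given in fours are in the order AMY, Nac, PFC, VTA. Series 1200 holds 8, 8, 8 and 8 chronic cocaine libraries and 17, 18, 16 and 17 chronic saline libraries. Series 1000 holds 22, 21, 20 and 21 with chronic cocaine, 14, 14, 15 and 16 with acute cocaine and 14, 13, 14 and 12 with acute saline. Series 1100 holds 14, 14, 15 and 13 with acute cocaine and 13, 14, 14 and 16 with acute saline, and series 500 holds chronic saline alone (13, 10, 10 and 12). Chronic cocaine and chronic saline therefore meet within 1 number series only in series 1200, with 8 numbers against 19. Library totals ran from 11.21 to 52.34 M reads (M, mega-reads) with a median of 21.72 M, so 1 CPM (1 read per mega-read of the library) was about 22 reads in a typical library. The region labels were set beside a few textbook genes chosen after the files were seen. The dopamine neuron genes Th and Slc6a3 were at medians of 823 and 1660 CPM in VTA and at most 13.0 and 1.36 CPM elsewhere. The striatal genes Drd1 and Adora2a had medians of 254 and 267 CPM in Nac. Single libraries held much of a gene of another region: Slc17a7, high in cortex, was at a median of 9.44 CPM in Nac but was about as high in N1177 as in the lowest PFC library, and Adora2a, at a median of 2.65 CPM in PFC, reached 78.8 CPM in P1095. In 3 libraries labelled female (1 of AMY, 2 of Nac), summed Y-linked transcripts reached at least 5% of the male median of the region. They were kept as labelled. In principal components 8 libraries stood apart (4 in Nac and 4 in PFC).

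Lcn2 encodes lipocalin 2, a secreted protein that binds iron-carrying siderophores and is strongly induced in reactive astrocytes, endothelium and neutrophils during inflammation. Some cytokines of the IL-6 family act through the receptor subunit Osmr and gp130 on JAK kinases and STAT3. The targets of STAT3 include Socs3, the feedback inhibitor of that pathway, and Cebpd, a transcription factor of acute phase genes. IL-1 and TNF act through NF-kB on genes such as Icam1, the endothelial adhesion molecule that leukocytes bind. Serpina3n is a secreted protease inhibitor of reactive astrocytes, Steap4 a membrane metalloreductase found in mural cells of brain vessels, and Ch25h the enzyme that makes 25-hydroxycholesterol. The tissue was bulk, so more cells of a type and more RNA per cell cannot be told apart in any of the values that follow.

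In GRCm38 (GENCODE M21 annotation) Lcn2 lies on chromosome 2 from 32384633 to 32388252 (minus strand) and Ch25h on chromosome 19 from 34473778 to 34475164 (minus strand). Steap4 lies on chromosome 5 from 7960457 to 7982213 (plus strand), Icam1 on chromosome 9 from 21015985 to 21028817 (plus) and Serpina3n on chromosome 12 from 104406729 to 104414329 (plus). Osmr lies on chromosome 15 from 6813577 to 6874969 (minus), Cebpd on chromosome 16 from 15887286 to 15891031 (plus) and Socs3 on chromosome 11 from 117966079 to 117970047 (minus). Promoters of 7 of the 8 genes, from 250 bases before to 50 bases after the start, were found in RefSeq (GRCm38.p6), and none was found for Cebpd. Each was searched on both strands for TTCNNNGAA (STAT), GGG and CC parted by any 5 bases (NF-kB) and TTGCNNAA (C/EBP), which occur in 8.3%, 50.8% and 10.8% of 32851 promoters of the same length. STAT matches were in Steap4 (TTCCCGGAA, first base 116 bases before the start), Icam1 (the same TTCCCGGAA, 42 before) and Socs3 (TTCTTAGAA, 154 before). C/EBP matches were in Lcn2 (216 before), Ch25h (112 before) and Steap4 (87 before), and the loose NF-kB pattern was in all 7. A match describes letters in this window and is not a measured binding site. Shown here are the promoters of Lcn2 and Ch25h, the genes with the largest ratios of the 8 in series 1200, and of Steap4 and Icam1, which differed together in VTA. Matches are in capitals, 5′ to 3′ along the gene's strand, and the stretches are chr2:32387690-32387989 (minus), chr19:34475099-34475398 (minus), chr5:7960222-7960521 (plus) and chr9:21015690-21015989 (plus).
Lcn2: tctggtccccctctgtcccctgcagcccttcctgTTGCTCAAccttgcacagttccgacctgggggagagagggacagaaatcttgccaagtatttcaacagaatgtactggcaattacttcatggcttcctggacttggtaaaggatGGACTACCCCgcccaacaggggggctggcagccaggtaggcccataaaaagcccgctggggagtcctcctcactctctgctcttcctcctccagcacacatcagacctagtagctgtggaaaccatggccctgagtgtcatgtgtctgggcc
Ch25h: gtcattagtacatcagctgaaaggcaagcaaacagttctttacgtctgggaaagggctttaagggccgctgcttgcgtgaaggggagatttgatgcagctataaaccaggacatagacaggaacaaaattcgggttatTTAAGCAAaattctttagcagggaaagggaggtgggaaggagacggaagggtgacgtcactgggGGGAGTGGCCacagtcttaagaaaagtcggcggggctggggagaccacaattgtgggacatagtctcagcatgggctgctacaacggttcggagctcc
Steap4: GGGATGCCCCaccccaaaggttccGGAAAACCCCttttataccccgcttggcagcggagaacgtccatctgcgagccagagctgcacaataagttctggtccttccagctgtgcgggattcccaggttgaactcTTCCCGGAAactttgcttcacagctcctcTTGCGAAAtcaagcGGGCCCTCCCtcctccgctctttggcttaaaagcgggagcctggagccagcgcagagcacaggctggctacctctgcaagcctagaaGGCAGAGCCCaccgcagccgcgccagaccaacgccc
Icam1: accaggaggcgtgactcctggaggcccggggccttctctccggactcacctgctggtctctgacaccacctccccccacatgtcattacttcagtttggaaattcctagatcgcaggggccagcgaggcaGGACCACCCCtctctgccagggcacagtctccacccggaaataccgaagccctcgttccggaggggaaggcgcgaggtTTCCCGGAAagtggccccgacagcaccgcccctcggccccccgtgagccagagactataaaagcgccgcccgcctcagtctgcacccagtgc

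The levels of the 8 genes over all libraries were compared first per length of exon (median CPM per kilobase). Serpina3n was the highest of the 8 in every region, at 9.36 in AMY, 3.47 in Nac and 6.75 in PFC, and higher still in VTA. Socs3 was at 0.951, 0.404, 1.0 and 0.411, and in VTA Cebpd (0.435) and Icam1 (0.433) were above it. Lcn2 was the lowest in every region, at 0.0301, 0.0338, 0.051 and 0.0406. The median library held 2, 2, 3 and 2 reads of Lcn2, and 25, 20, 11 and 20 libraries held none. A count of 0 allows up to 3 reads, which is 0.0898 to 0.219 CPM in those libraries, counting error only. Lcn2 differences below that range were not detectable in a single library.

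Between regions, the quasi-likelihood test of edgeR, adjusted by Benjamini-Hochberg over 18627 genes, called 81.5% (AMY against PFC) to 90.4% (Nac against VTA) of all genes, so a call between regions is the rule and the order of levels is what it adds. Of the 8 genes, 6 were called between AMY and Nac (84.4% of all genes), 3 between AMY and PFC (81.5%), 6 between AMY and VTA (87.3%), 6 between Nac and PFC (86.0%), 5 between Nac and VTA (90.4%) and 6 between PFC and VTA (89.3%).
Serpina3n was ordered VTA, AMY, PFC, Nac, and all 6 pairs were called. Its level was 24.7 CPM in the median VTA library (18.2 to 38.0) and 7.17 CPM in the median Nac library (3.38 to 21.6), a log2 difference Nac minus VTA of -1.68 (SE 0.04, adjusted p = 3.39e-139). The neighbours differed by less: AMY minus PFC was 0.36 (SE 0.04) and AMY minus VTA -0.42 (SE 0.04).
Socs3 fell into a high pair and a low pair. Its median was 2.89 CPM in PFC and 2.75 CPM in AMY, against 1.19 CPM in VTA and 1.17 CPM in Nac. PFC minus VTA was 1.27 on the log2 scale (SE 0.05, adjusted p = 8.34e-78), and AMY minus PFC was -0.15 (SE 0.05, adjusted p = 0.00331). Nac minus VTA, at -0.01 (SE 0.06, adjusted p = 0.897), was not called.
Steap4 was highest in VTA, with a median of 0.565 CPM against 0.209 in AMY, 0.252 in Nac and 0.227 in PFC. VTA stood above each of the others, by log2 differences of -1.26 (AMY minus VTA), -1.13 (Nac minus VTA) and -1.26 (PFC minus VTA), each with an SE of 0.1, and the other 3 regions were not called against each other. Ch25h was highest in PFC (median 0.405 CPM) and lowest in Nac (0.0893 CPM), a log2 difference Nac minus PFC of -1.71 (SE 0.14, adjusted p = 1.49e-30). AMY and VTA lay between them at medians of 0.187 and 0.192 CPM and were not called against each other.
The differences were smaller for Icam1, Cebpd and Osmr. Icam1 was highest in VTA (median 1.89 CPM), then Nac (1.62), with AMY and PFC at 1.47 CPM each and not called against each other. The fitted place of Nac changed when series 1200 was left out. AMY minus Nac was then 0.15 (adjusted p = 0.129 by edgeR) in place of -0.2, and Nac minus PFC was -0.2 in place of 0.13. In that fit N524, a library that stood apart, was the only one of the isolated females with chronic saline in Nac. It held 0.0663 CPM of Icam1, against 1.29 CPM in the next lowest Nac library of series 500. The parts of N524 and of series 1200 in this change were not tested. Cebpd had medians of 1.63 CPM in VTA and 1.42 in Nac, which were not called against each other, and of 1.21 CPM in both AMY and PFC. Osmr was highest in Nac, at 4.58 CPM, and its largest log2 difference was -0.26 (AMY minus Nac, SE 0.04). Lcn2 was not called in any of the 6 pairs, with log2 differences between -0.45 and 0.04 and SEs of 0.28 to 0.32. With title number as a block, in limma voom, it was called in 4 pairs: -0.28 for AMY minus Nac (adjusted p = 0.00653), -0.4 for AMY minus PFC, -0.51 for AMY minus VTA and -0.23 for Nac minus VTA (adjusted p = 0.0246).

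Within series 1200, Lcn2 was higher with chronic cocaine than with chronic saline in all 4 regions, by pooled reads 21.7-fold, 8.92-fold, 12.1-fold and 12.6-fold. These ratios divide summed reads by summed library totals, and they rest on 184 against 18 reads in AMY, 205 against 51 in Nac, 306 against 49 in PFC and 277 against 44 in VTA. No number decided them: leaving out each title number in turn gave 17.3 to 24.8 (AMY), 7.34 to 10.7 (Nac), 10.1 to 16.1 (PFC) and 10.5 to 15.2 (VTA). In AMY the lowest, median and highest library had 0, 0.856 and 2.68 CPM with cocaine, against 0, 0.0443 and 0.151 CPM with saline. In Nac they had 0, 0.887 and 2.7 CPM with cocaine, against 0, 0.0782 and 0.495 CPM with saline. In PFC the cocaine libraries had 0.133, 1.29 and 3.67 CPM, against 0, 0.111 and 0.661 CPM in the saline libraries, and in VTA 0.0454, 1.43 and 3.38 CPM against 0, 0.0974 and 0.618 CPM. The groups overlapped in every region, with 6, 6, 5 and 5 of the 8 cocaine libraries above the highest saline library in AMY, Nac, PFC and VTA.

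The same numbers carried the high levels in all 4 regions. A1202, A1205, A1206, A1210 and A1215 were above every saline library of the series, and so were the libraries of those numbers in each other region. A1205, N1205, P1205 and V1205, from a group-housed male, had 2.68, 1.92, 3.67 and 3.38 CPM. A1210, N1210, P1210 and V1210, the only ones labelled isolated female with chronic cocaine in this series, had 2.4, 2.22, 2.58 and 2.14 CPM. High and low numbers occurred side by side within a sex and housing. Of the other group-housed male, A1206, N1206, P1206 and V1206 had 1.44, 2.7, 1.76 and 2.69 CPM. Among isolated males, A1215, N1215, P1215 and V1215 had 0.72, 0.85, 2.45 and 1.7 CPM, while A1216, N1216, P1216 and V1216, at 0, 0, 0.13 and 0.05 CPM, were at the saline level. Among group-housed females, A1202, N1202, P1202 and V1202 had 0.99, 0.92, 0.83 and 1.17 CPM and A1204, N1204, P1204 and V1204 had 0.53, 0.63, 0.41 and 0.61 CPM. A1200, N1200, P1200 and V1200 had 0.05, 0.16, 0.21 and 0.58 CPM, so this number was near the saline level outside VTA. Among the 19 saline numbers, that of V1224, a group-housed female, was the highest, with a median over regions of 0.529 CPM.

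**Figure D1:**
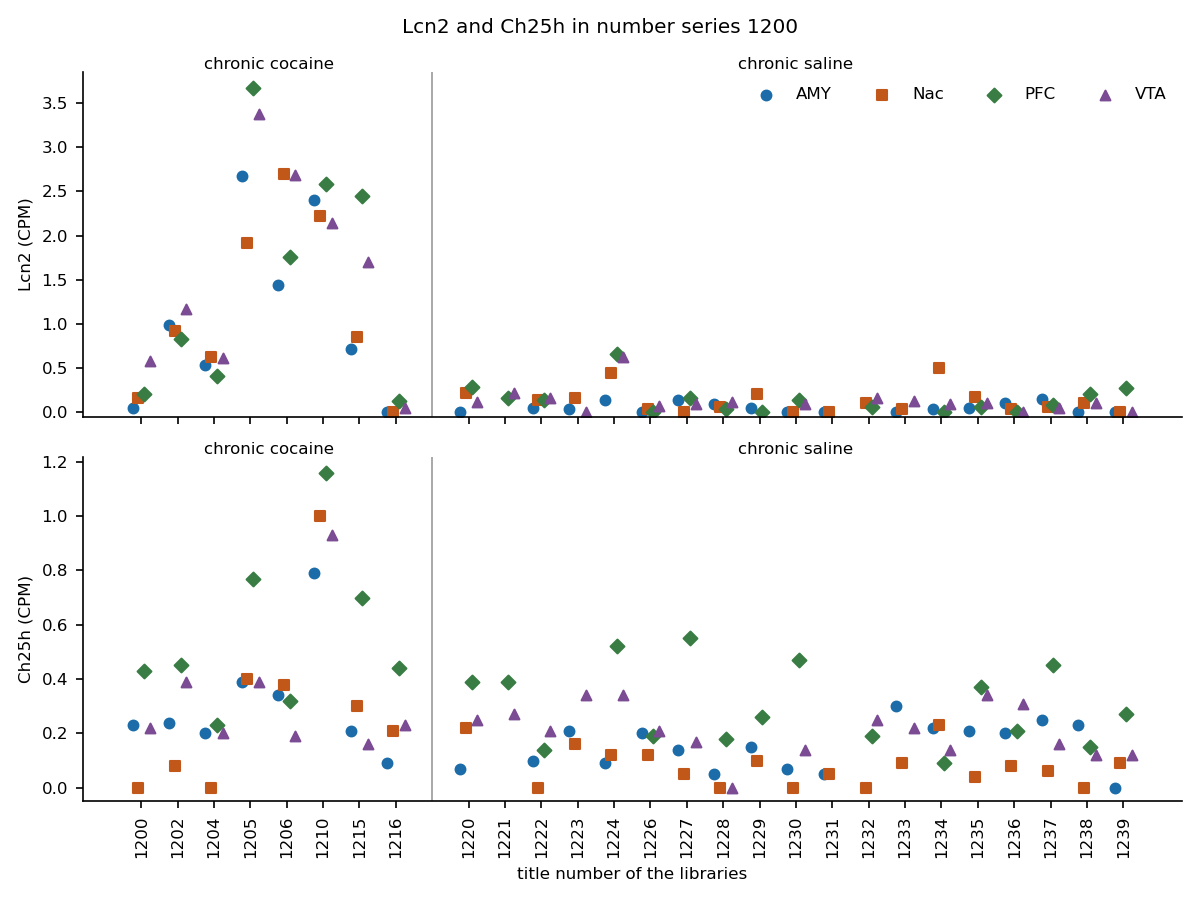
Lcn2 (upper panel) and Ch25h (lower panel) in CPM for every title number of series 1200, with the 8 chronic cocaine numbers left of the line and the chronic saline numbers right of it, and a symbol for each region. Lcn2 is high in the same cocaine numbers in all 4 regions and near 0 in all regions of the last cocaine number (A1216 to V1216), and Ch25h is highest in A1210, N1210, P1210 and V1210.

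The contrast was also fitted across all genes, which for the 8 genes gives a size and no test. Lcn2 and Steap4 passed the filter on low counts in VTA alone, Ch25h in PFC alone, and Serpina3n, Osmr, Cebpd, Socs3 and Icam1 in all 4 regions. The edgeR log2 difference of Lcn2 in VTA, adjusted for sex and housing, was 3.48, and without V1224 Lcn2 no longer passed the filter there. Without the filter the fitted values were 4.24 (AMY), 3.01 (Nac), 3.36 (PFC) and 3.47 (VTA). Over all genes tested, 0.0% (AMY), 0.0123% (Nac), 0.0% (PFC) and 0.00624% (VTA) passed an adjusted p of 0.05, and 1049, 438, 377 and 328 genes had an unadjusted p under 0.05. DESeq2 called 0, 15, 5 and 1 genes and limma voom 0, 3, 0 and 1. The share in VTA is Lcn2 itself, whose values in this contrast chose the genes, so nothing is read from it. In Nac the genes past the threshold were the activity-regulated genes Arc and Dusp1. Arc averaged 68.9 ± 17.7 CPM with cocaine and 42.0 ± 10.8 CPM with saline (SD, n = 8 and 18), a log2 difference of 0.82 (SE 0.12, adjusted p = 0.00408 by edgeR). The difference of Dusp1 was 0.43 (SE 0.07, adjusted p = 0.00408 by edgeR).

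Ch25h was the other member with a ratio above 1.5 in every region, at 2.08 (AMY), 3.61 (Nac), 2.09 (PFC) and 1.63 (VTA). Its medians with cocaine were 0.235, 0.257, 0.449 and 0.223 CPM, against 0.15, 0.071, 0.268 and 0.214 CPM with saline. Of the 8 cocaine libraries, 3, 4, 3 and 3 were above the highest saline library. The cocaine values rested on 52, 52, 118 and 62 reads, against 53, 32, 110 and 76 reads with saline. Much of the difference lay in A1210, N1210, P1210 and V1210, with 0.79, 1.0, 1.16 and 0.93 CPM. Without that number the ratios were 1.61, 2.32, 1.69 and 1.27. A1205, N1205 and P1205 came next (0.39, 0.4 and 0.77 CPM), and V1205 and V1202 had 0.39 CPM each.

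The 6 remaining genes had ratios near 1 and groups that overlapped widely. Cebpd was at 1.23, 1.09, 1.39 and 1.16, the only one of the 6 above 1 in every region, with PFC medians of 1.47 CPM with cocaine and 1.02 CPM with saline. Steap4 was below 1 throughout, at 0.871, 0.787, 0.927 and 0.85, and its VTA medians were 0.677 CPM with cocaine and 0.84 CPM with saline. Both directions occurred in the others: Socs3 ran from 0.966 (Nac) to 1.27 (VTA), Icam1 from 0.863 (Nac) to 1.08 (AMY and PFC), Osmr from 0.987 (Nac) to 1.13 (AMY) and Serpina3n from 0.968 (Nac) to 1.12 (AMY). A1216, N1216 and P1216, with almost no Lcn2, were the highest of the 8 cocaine libraries for Socs3, at 4.77, 2.51 and 4.3 CPM, and A1216 was the highest of all 115 AMY libraries.

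**Figure D2:**
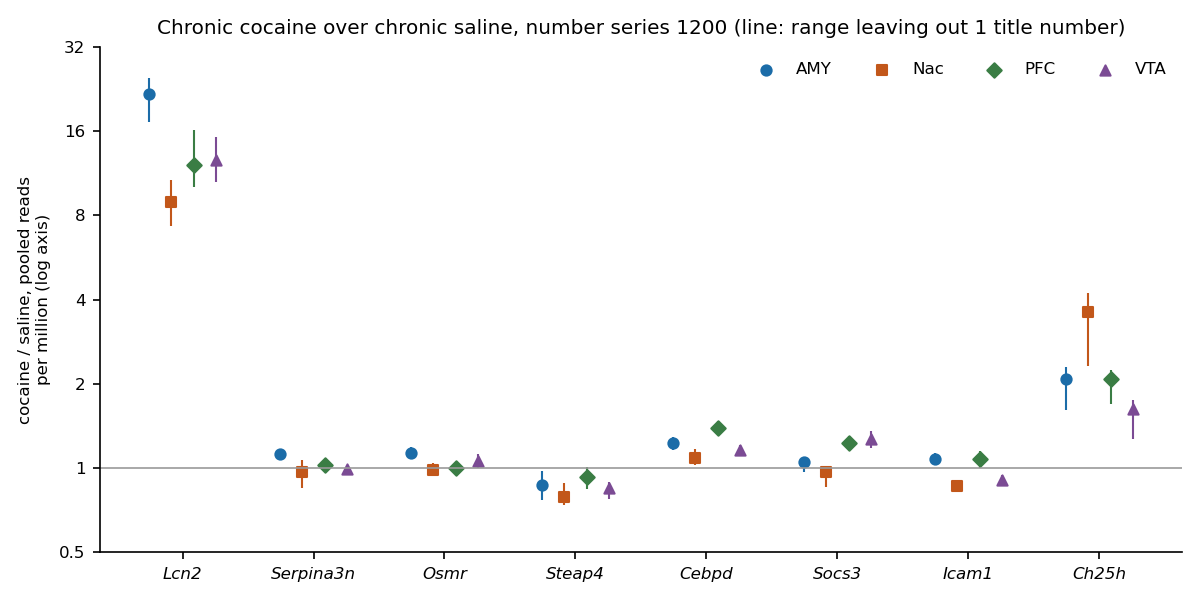
Pooled ratio of chronic cocaine to chronic saline in series 1200 (log axis) for each gene and region, where the line spans the ratios obtained on leaving out each title number in turn. Lcn2 lies between 8.92 and 21.7 and Ch25h between 1.63 and 3.61, while the other 6 genes lie between 0.787 and 1.39.

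None of the genes of the 16 pathway and cell type lists passed the edgeR test in this contrast in any region, while DESeq2 called 2 of them in Nac and 1 in PFC. In the list of IL-6 family and JAK-STAT3 signalling 0 of 16 genes tested passed in each region, with medians of 0.03, 0.03, 0.01 and -0.02 on the log2 scale, and in that of the NF-kB response and endothelial activation 0 of 13 passed, with medians of -0.01, 0.03, 0.02 and 0.03. The medians over all genes tested were between -0.01 and 0. The summed red blood cell markers (7 of 7 in the table) were higher with cocaine, at medians of 79.0 against 56.9 CPM (AMY), 103 against 65.9 (Nac), 100 against 54.5 (PFC) and 100 against 65.7 (VTA). Their ranges overlapped in every region, in Nac 56.3 to 123 CPM with cocaine and 43.7 to 113 CPM with saline. The summed glucocorticoid-induced genes (15 of 15 in the table) were higher with cocaine too, with 520 to 707 CPM (median 617) against 477 to 588 CPM in AMY, and medians of 782 against 722 CPM in Nac, 701 against 612 in PFC and 712 against 614 in VTA. In AMY their median with cocaine was above the highest saline library, and the ranges overlapped in every region. None of the 15 was called by edgeR, and their median log2 differences were 0.18, 0.13, 0.2 and 0.15. The summed neutrophil markers (12 of 12 in the table) had medians of 3.34 against 3.23 CPM (AMY), 1.21 against 1.09 (Nac), 1.41 against 1.19 (PFC) and 2.54 against 2.42 (VTA). Of these, Ly6g was at 0 in all 8 cocaine libraries of AMY, Elane in all 8 of Nac and of VTA, and Elane also in all 16 saline libraries of PFC. Endothelial markers summed to medians of 495 against 447 CPM in AMY, 458 against 427 in PFC and 584 against 560 in VTA, with ranges of 467 to 603 against 398 to 629 CPM in Nac, and astrocyte markers to 6530 against 6270, 5830 against 5680, 5490 against 5400 and 6420 against 6360. Other sums went both ways. Pan-reactive astrocyte genes had medians of 332 against 307 CPM (AMY), 95.2 against 98.1 (Nac), 141 against 155 (PFC) and 114 against 133 (VTA). Microglia markers had medians of 465 against 448, 576 against 583, 476 against 467 and 444 against 457 CPM. The part of blood, of glucocorticoid-induced genes or of these cell types in the Lcn2 values was not tested.

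Lcn2 levels of this size were rare outside the chronic cocaine libraries of series 1200. At least 0.5 CPM was reached in 24 of the 32 chronic cocaine libraries of series 1200, against 2 of its 68 chronic saline libraries. In series 1000 it was reached in 4 of 84 libraries with chronic cocaine, A1063, N1063, P1063 and V1063, in 4 of 59 with acute cocaine and in 9 of 53 with acute saline. In series 1100 it was reached in 3 of 56 with acute cocaine and in 5 of 57 with acute saline, and in series 500 in 4 of 45 with chronic saline. These counts take libraries that share a title number as separate. By the median over the regions of a number, series 1200 had 6 of 8 cocaine numbers and 1 of 19 saline numbers at that level. Series 1000 had 1 of 24 with chronic cocaine, 0 of 17 with acute cocaine and 2 of 15 with acute saline. Series 1100 had 1 of 16 with acute cocaine and 2 of 16 with acute saline, and series 500 had 2 of 14. The median over the 84 chronic cocaine libraries of series 1000 was 0.0873 CPM, against 0.957 CPM over the 32 of series 1200. Series and drug history cannot be told apart further, because the labels give no difference between these cocaine groups other than the numbers.

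**Figure D3:**
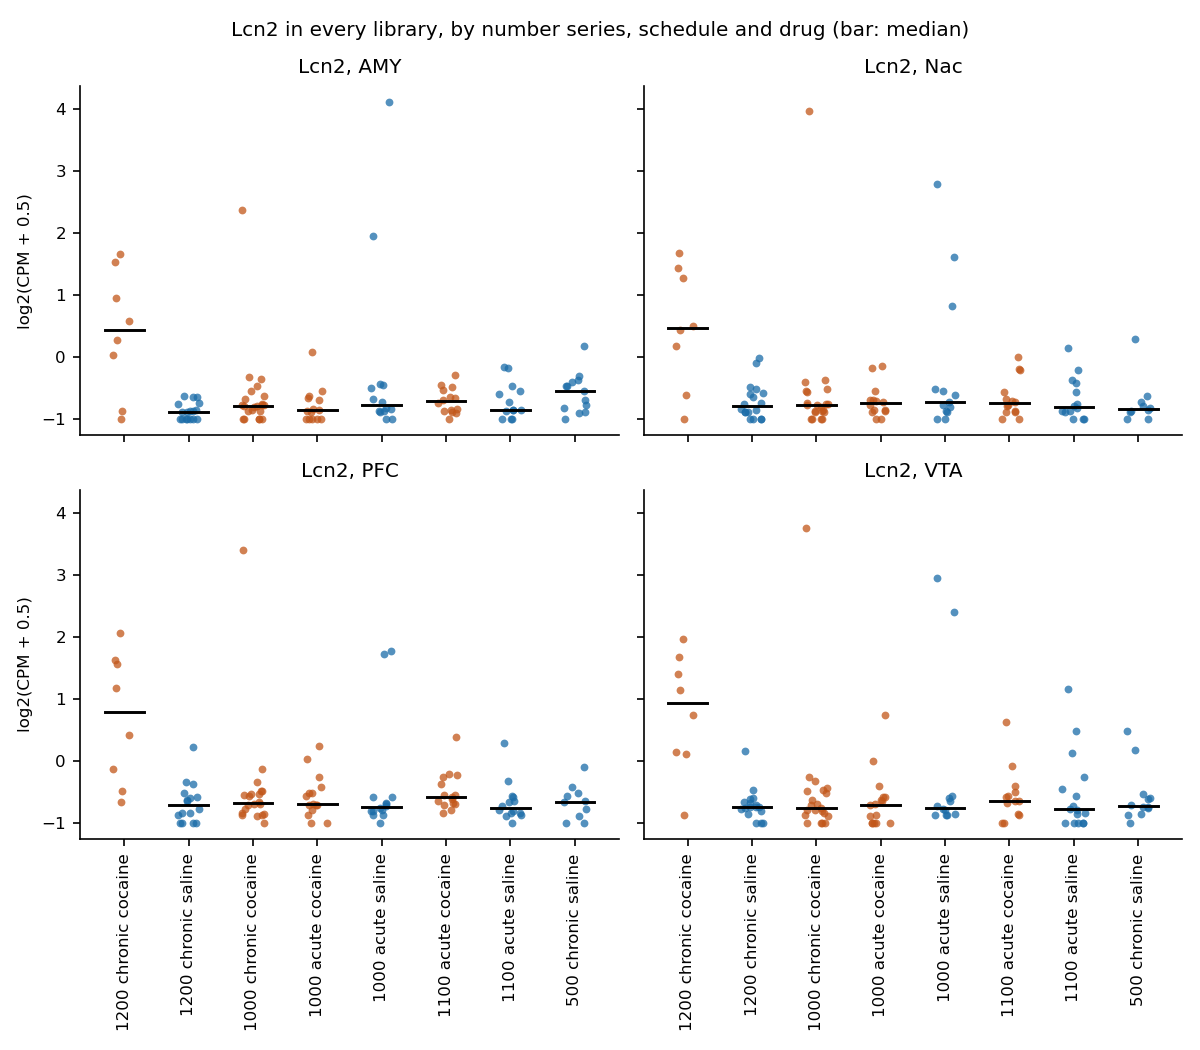
Lcn2 as log2(CPM + 0.5) in every library, by number series, schedule and drug, in 4 panels for the regions (points are libraries, bars are medians, and colour separates cocaine from saline). The median of the chronic cocaine group of series 1200 lies above those of the other groups in each panel, while its libraries overlap theirs. The highest point of each panel is outside that group, in a library with the number of A1046 or V1063.

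The highest Lcn2 libraries of the whole series came from 3 other numbers, chosen here after their values were seen. A1063, N1063, P1063 and V1063, from a group-housed female with chronic cocaine, had 4.71, 15.2, 10.05 and 12.97 CPM, the highest of the region in all but AMY. A1046, N1046, P1046 and V1046, from a group-housed male with acute saline, had 16.8 CPM, the highest of AMY, and 6.41, 2.9 and 7.17 CPM. A1045, N1045, P1045 and V1045, with the same labels as A1046, had 3.37, 2.56, 2.79 and 4.78 CPM. The region medians were 0.079, 0.0887, 0.134 and 0.107 CPM.
Several of the other genes were high too in A1063, N1063, P1063 and V1063. Osmr was at 8.23, 9.43, 7.88 and 10.2 CPM there, the highest of its region in AMY, PFC and VTA. Socs3 was at 4.52, 2.77, 5.48 and 3.22 CPM, the highest in PFC and VTA. Ch25h was at 0.598, 1.21, 0.968 and 1.07 CPM, the highest in Nac and VTA, and Cebpd was the highest in VTA at 3.84 CPM. Serpina3n was not among the highest in A1063 (18.7 CPM, rank 69 of 115) or N1063 (7.19 CPM, rank 55 of 112), and ranked 4 in P1063 (18.8 CPM) and 15 in V1063 (29.4 CPM). The neutrophil gene S100a9 was at 0.486, 1.36, 1.06 and 2.07 CPM in these libraries, ranks 4, 1, 2 and 1, and at 1.71 CPM in A1046, rank 1. No other neutrophil gene was ranked in these libraries, so nothing is read about neutrophils from it. A1046 held the highest Steap4 value of AMY (1.44 CPM) and V1046 the second highest Serpina3n value of VTA (35.1 CPM). The part of blood cells in these libraries was not tested.

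Acute cocaine was compared with acute saline in series 1000 and 1100, libraries outside the contrast that chose the genes, although they entered the correlations with Lcn2 that chose them in part. None of the members was called in any region, of 8, 7, 8 and 8 tested in AMY, Nac, PFC and VTA, where 0.0%, 0.0%, 0.0588% and 0.0467% of all genes were called by edgeR and 3.36%, 4.89%, 11.4% and 7.15% had an unadjusted p under 0.05 (584 and 845 genes in AMY and Nac). DESeq2 and limma voom called none of the members either. The log2 differences ran from -0.74 to 0.47, with a smallest adjusted p of 0.171, and 4 of the 31 tests had an unadjusted p under 0.05. Those were Socs3 in PFC and Nac, in opposite directions, and Steap4 and Cebpd in VTA. Socs3 averaged 3.35 ± 0.648 CPM with acute cocaine and 2.73 ± 0.456 CPM with acute saline in PFC (SD, n = 30 and 28), a log2 difference of 0.27 (SE 0.07). It averaged 1.07 ± 0.396 CPM with acute cocaine and 1.44 ± 0.635 CPM with acute saline in Nac (n = 28 and 27), a log2 difference of -0.39 (SE 0.13, adjusted p = 0.703). Lcn2 differed by -0.74 (SE 0.69) in AMY, -0.7 (SE 0.62) in Nac, 0.17 (SE 0.49) in PFC and -0.18 (SE 0.77) in VTA. Its medians were 0.062, 0.0988, 0.16 and 0.136 CPM with acute cocaine, against 0.0675, 0.087, 0.0946 and 0.086 CPM with acute saline. The acute saline libraries include those numbered as A1045 and A1046, and in AMY they averaged 0.854 ± 3.26 CPM (SD). Of the listed genes, 1 passed in PFC, the glucocorticoid-induced Ddit4 (log2 0.26, SE 0.05, adjusted p = 0.0131 by edgeR, 1 of 15 in its list). In VTA 1 passed, the glutamatergic neuron marker Slc17a7 (1.52, SE 0.32, adjusted p = 0.0288 by edgeR, 1 of 10). Slc17a7 had a median of 7.48 CPM over the VTA libraries and reached 329 CPM in V1121, an acute cocaine library. The part of that library in the difference was not tested.

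Chronic cocaine was compared with acute saline within series 1000, where drug and schedule change together and cannot be told apart. Icam1 was higher with chronic cocaine in AMY, PFC and VTA, and Steap4 was higher in VTA. In AMY 1 of 8 members was called (11.8% of all genes), against 0 of 8 in Nac (5.36%). In PFC it was 1 of 8 (18.9%), and in VTA 2 of 7 (46.2%), so in VTA a call was nearly as common among all genes as not. In each region the share of members called was near or below that of all genes, so nothing is read from the number of calls. Steap4 in VTA had 0.471, 0.702 and 1.58 CPM in the lowest, median and highest of the 21 chronic cocaine libraries, against 0.101, 0.334 and 0.634 CPM in the 12 acute saline libraries. All 21 were above the acute saline median although the ranges overlapped, and the log2 difference was 1.18 (SE 0.22, adjusted p = 3.07e-05 by edgeR). The same gene differed by 0.13 (SE 0.34) in AMY, 0.03 (SE 0.3) in Nac and -0.05 (SE 0.27) in PFC. Icam1 in VTA had 0.881, 2.12 and 3.19 CPM with chronic cocaine, against 1.05, 1.52 and 2.83 CPM with acute saline, a log2 difference of 0.45 (SE 0.13, adjusted p = 0.00523). In AMY it had 1.14, 1.64 and 3.9 CPM with chronic cocaine, against 0.743, 1.28 and 2.19 CPM with acute saline (0.56, SE 0.14, adjusted p = 0.0092), and in PFC 1.02, 1.74 and 2.76 CPM against 0.721, 1.25 and 2.0 CPM (0.49, SE 0.11, adjusted p = 0.00276). Of the chronic cocaine libraries, 20 of 22 in AMY, 19 of 20 in PFC and 19 of 21 in VTA were above the acute saline median. In Nac Icam1 differed by 0.14 (SE 0.16, adjusted p = 0.604). Lcn2 differed by -0.81 (SE 0.84) in AMY, -0.04 (SE 0.63) in Nac, 0.42 (SE 0.76) in PFC and 0.35 (SE 1.09) in VTA and was not called. Without the numbers of A1045, A1046 and A1063, a choice made after seeing the data, Cebpd was lower in VTA (-0.46, adjusted p = 0.00406 by edgeR) and Nac (-0.49, adjusted p = 0.0451) and Osmr in Nac (-0.34, adjusted p = 0.0203), and the calls of Icam1 and Steap4 held.

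High Steap4 and Icam1 in VTA occurred in chronic saline libraries as well. The VTA medians of Steap4 were 0.702 CPM with chronic cocaine of series 1000, 0.677 and 0.84 CPM with chronic cocaine and chronic saline of series 1200, and 0.848 CPM with chronic saline of series 500. With acute treatment they were 0.338 and 0.334 CPM with cocaine and saline in series 1000 and 0.535 and 0.321 CPM with cocaine and saline in series 1100. Those of Icam1 were 2.12 CPM with chronic cocaine of series 1000, 2.11 and 2.17 CPM with cocaine and saline in series 1200, 2.07 CPM in series 500, 1.4 and 1.52 CPM with acute cocaine and acute saline of series 1000, and 1.96 and 1.71 CPM with acute cocaine and acute saline of series 1100, so the acute medians of series 1100 lay closer to the chronic ones than those of series 1000. Chronic saline of series 500 against acute saline of series 1000 and 1100, a comparison added after seeing the data that shares the acute saline libraries of series 1000 with the one above, gave 1.19 for Steap4 in VTA (SE 0.17, adjusted p = 1.73e-06 by edgeR). All 12 chronic saline libraries were above the acute saline median. There 0 of 5 members were called in AMY (18.2% of all genes), and 1 of 5 in Nac (20.1%). PFC and VTA had 2 of 6 each (24.2% and 36.3%). With so few members these counts are near or below the shares of all genes, and nothing is read from them. Osmr was lower with chronic saline in Nac (-0.37, SE 0.1, adjusted p = 0.0131) and PFC (-0.43, SE 0.1, adjusted p = 0.00247), and Cebpd was lower in PFC (-0.42, SE 0.14, adjusted p = 0.0242) and VTA (-0.41, SE 0.12, adjusted p = 0.00784). Icam1 differed by 0.27 (SE 0.12, adjusted p = 0.0695) in VTA. Number series and schedule change together in this comparison and cannot be told apart.

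**Figure D4:**
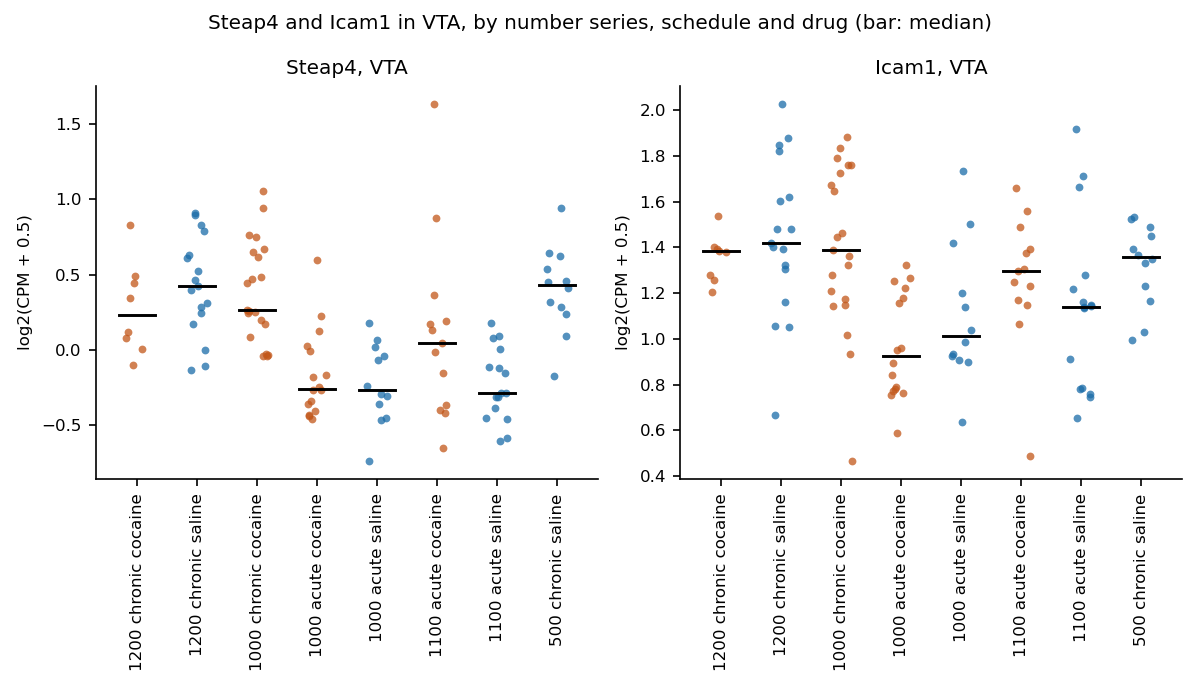
Steap4 (left) and Icam1 (right) in the VTA libraries as log2(CPM + 0.5), by number series, schedule and drug (points are libraries, bars are medians, and colour separates cocaine from saline). The medians of Steap4 are at 0.677 CPM or more in the 4 chronic groups and at 0.535 CPM or less in the 4 acute groups.

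Genes of the lists were called beside Icam1 and Steap4 between chronic cocaine and acute saline of series 1000, where 11.8%, 5.36%, 18.9% and 46.2% of all genes were called. Of 17 endothelial markers tested, 12, 1, 6 and 13 were higher with chronic cocaine and 0, 1, 1 and 0 lower. Among them Cldn5, the tight junction claudin of brain endothelium, differed by 0.51 (SE 0.1) in AMY, 0.47 (SE 0.09) in PFC and 0.48 (SE 0.1) in VTA. Microglia markers were higher in 9, 0, 6 and 12 of 13, among them Trem2 with 0.48 (SE 0.11) in VTA. Mural cell markers were higher in 2, 0, 2 and 1 of 10 and lower in 0, 0, 0 and 1. Glucocorticoid-induced genes were lower in 10, 6, 9 and 7 of 15 and higher in 1, 0, 2 and 0, so in VTA their share was near that of all genes. Sgk1, a kinase gene induced by corticosteroids, differed by -0.8 (SE 0.11), -0.6 (SE 0.07), -0.5 (SE 0.06) and -1.51 (SE 0.12). In the IL-6 family and JAK-STAT3 list 0, 0, 0 and 2 genes were higher and 4, 1, 4 and 4 lower, of 16, 16, 16 and 17, and the AP-1 genes Fosl2 and Junb were lower in AMY, PFC and VTA. The NF-kB list had 1, 2, 2 and 1 genes higher and 2, 1, 2 and 1 lower of 14, 14, 13 and 14, with the inhibitor gene Nfkbia lower in all 4 regions (-0.36, -0.46, -0.27 and -0.45). Red blood cell markers were lower in VTA in 5 of 5. Whether the share of vessel cells carries the Icam1 and Steap4 differences was not tested.

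Chronic cocaine of series 1000 set against chronic saline of series 500 differs in number series as well as in drug, which cannot be told apart. PFC was the only region with a member called, 1 of 6 (20.2% of all genes), against 0 of 5 in AMY (0.741%), 0 of 5 in Nac (0.28%) and 0 of 6 in VTA (0.554%). In PFC 1 of 6 is near the share of all genes, so nothing is read from the number of members called. The call was Osmr in PFC, with 2.04, 3.95 and 7.88 CPM in the lowest, median and highest of 20 chronic cocaine libraries, against 2.51, 2.86 and 3.64 CPM in 10 chronic saline libraries (log2 0.47, SE 0.13, adjusted p = 0.0115 by edgeR). Of the 20, 18 were above the chronic saline median, and the difference was 0.44 (adjusted p = 0.0221) without the libraries that stood apart. Osmr in PFC was also lower with chronic saline of series 500 than with acute saline (-0.43, adjusted p = 0.00247 by edgeR). Its pooled ratio of cocaine to saline in PFC within series 1200 was 0.998. Lcn2 and, outside PFC, Ch25h did not pass the filter on low counts.

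Social isolation was compared with group housing over all libraries of a region. None of the members was called by edgeR, DESeq2 or limma voom, and edgeR called 0.0% of all genes in each of the 4 regions. An unadjusted p below 0.05 was found for 819, 426, 381 and 556 genes, which is 4.71%, 2.47%, 2.24% and 3.24% of those tested. The log2 differences of the members ran from -1.01 to 0.31, and 6 of 31 had an unadjusted p under 0.05. Libraries of different regions share title numbers, so these 31 tests are not separate. Lcn2 had the lowest values, at -0.87 (SE 0.43) in AMY, -1.01 (SE 0.43) in Nac, -0.74 (SE 0.39) in PFC and -0.78 (SE 0.44) in VTA, with adjusted p between 0.976 and 1.0 by edgeR. A1045, A1046 and A1063 and the libraries of those numbers in the other regions, the highest in Lcn2, are all group-housed. In AMY Lcn2 averaged 0.153 ± 0.326 CPM over 57 isolated libraries and 0.626 ± 2.32 CPM over 58 group-housed ones (SD), while the medians were 0.0739 and 0.0884 CPM.

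Females were compared with males in the same fit, and Serpina3n was lower in females in AMY. It was 1 of 8 members called there (2.43% of all genes), and 0 of 7 were called in Nac (0.301%), with 0 of 8 each in PFC (1.17%) and VTA (0.362%). Serpina3n had 8.75, 18.1 and 24.1 CPM in the lowest, median and highest of 59 female AMY libraries, against 14.02, 20.9 and 32.9 CPM in 56 male libraries, a log2 difference of -0.24 (SE 0.05, adjusted p = 7.41e-04 by edgeR). Of the females, 47 of 59 were below the male median, and the ranges overlapped. The difference was -0.23 (SE 0.09, adjusted p = 0.34) in Nac, -0.11 (SE 0.03, adjusted p = 0.105) in PFC and -0.09 (SE 0.04, adjusted p = 0.61) in VTA. Within series 500, 1000, 1100 and 1200 it was -0.16, -0.26, -0.31 and -0.06 in AMY, and no series alone called it. Some listed genes were called in AMY as well. Counting a gene once for each list that holds it, 13 of 174 entries were lower in females and 2 higher. The lower entries included 3 of 12 astrocyte markers (Gja1, Slc4a4 and Slc1a3, by -0.16, -0.13 and -0.1), a list with 0 higher. They also included 1 of 9 pan-reactive astrocyte genes (Hspb1, -0.3) and 6 of 10 choroid plexus markers (among them Ttr, -1.83, SE 0.41). Their part in the Serpina3n difference was not tested. In PFC, 10 of 169 entries were lower in females and 0 higher. These included 4 of 17 endothelial markers, while Icam1 was not called there. Lcn2 differed by -0.18 (SE 0.44), 0.37 (SE 0.42), -0.02 (SE 0.36) and 0.28 (SE 0.43) in AMY, Nac, PFC and VTA.

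Over the libraries of a region, Lcn2 correlated weakly with the other 7 genes, and by the mean over regions most with Ch25h. These correlations chose the genes in part, the points share title numbers and number series, and most Lcn2 values rest on few reads, so no p is given. Spearman's rho with Ch25h was 0.488 (AMY), 0.314 (Nac), 0.316 (PFC) and 0.403 (VTA) (n = 115, 112, 112 and 115), and without series 1200 it was 0.477, 0.289, 0.242 and 0.406. It was 0.392, 0.119, 0.36 and 0.307 for Icam1, which in PFC was above Ch25h, and without series 1200 in AMY too (0.49). It was 0.44, 0.179, 0.17 and 0.242 for Osmr. The values for Cebpd were 0.295, 0.104, 0.207 and 0.134. Serpina3n ran from -0.0909 (Nac) to 0.304 (AMY), Steap4 from 0.0506 (Nac) to 0.376 (AMY) and Socs3 from -0.00437 (AMY) to 0.257 (VTA). AMY held the highest rho for every gene but Socs3. Among the 7 themselves, Osmr and Cebpd had the highest mean, with 0.417, 0.267, 0.21 and 0.407, and Steap4 and Icam1 reached 0.501 in VTA, where Osmr and Steap4 were at -0.354.

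**Figure D5:**
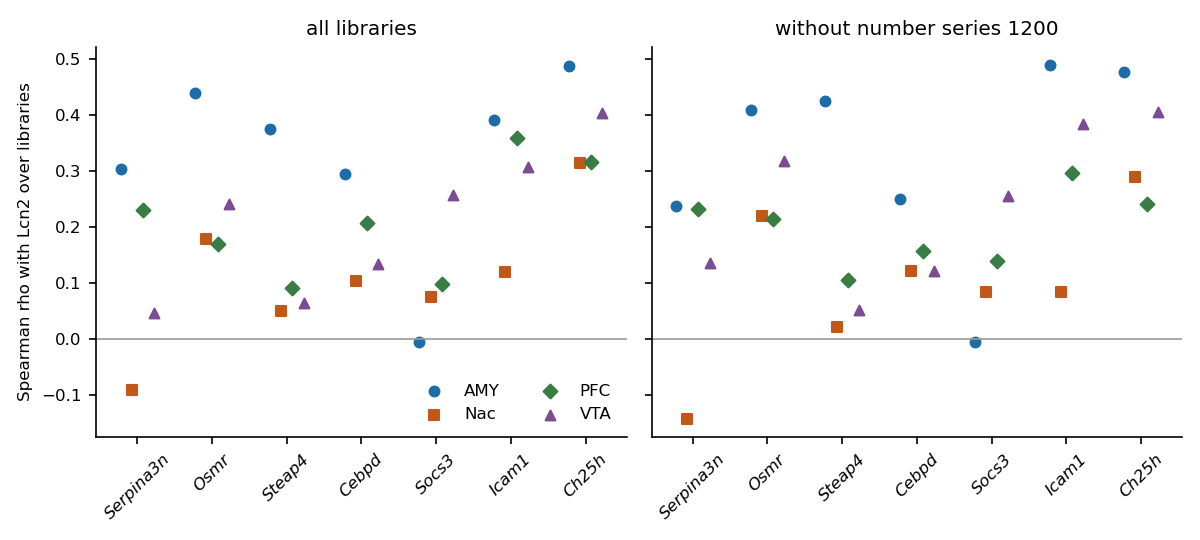
Spearman's rho of each gene with Lcn2 over the libraries of a region (symbols are regions), over all libraries on the left and without series 1200 on the right. Ch25h is above 0.2 in every region in both panels, and Serpina3n is below 0 in Nac in both.

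Set among 13658 genes of at least 1 CPM in every region, ranked by the mean of the 4 rho with Lcn2, Icam1 was at rank 18 (mean rho 0.294), Osmr at 31 (0.258), Cebpd at 131 (0.185), Serpina3n at 557 (0.123) and Socs3 at 815 (0.106). Ch25h (0.38) and Steap4 (0.145) were below that level and not ranked. The 10 genes most like Lcn2 were Ctla2a (0.456), Vwf (0.436), Ly6a (0.415), Tgm2 (0.4), Tmem252 (0.379), Il1r1 (0.369), Slc38a5 (0.35), Ifitm3 (0.349), Lyz2 (0.331) and Cp (0.329). Vwf encodes von Willebrand factor of endothelium, Il1r1 the receptor of IL-1 and Cp ceruloplasmin. The 3 highest in a region were Vwf, Angpt2 and Tgm2 in AMY (0.637, 0.579 and 0.554), Ctla2a, Ly6a and Sult1a1 in Nac (0.493, 0.43 and 0.394), Ly6a, Acer2 and Galnt15 in PFC (0.52, 0.404 and 0.403) and Il1r1, Slc38a5 and Ctla2a in VTA (0.506, 0.491 and 0.486).

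Across regions and over all series, Lcn2 had the highest median correlation between libraries of the same title number. Over the 6 pairs of regions, each with 99 to 106 shared numbers, its Spearman's rho ran from 0.352 to 0.546 with a median of 0.5, and its Pearson's r on log2(CPM + 0.5) ran from 0.852 to 0.916. The medians of rho for the others were 0.365 for Icam1, 0.355 for Cebpd, 0.305 for Osmr, 0.254 for Ch25h, 0.192 for Serpina3n, 0.105 for Socs3 and 0.034 for Steap4. Without series 1200 the median for Lcn2 was 0.435, against 0.404 for Cebpd and 0.356 for Osmr, and between AMY and Nac Lcn2 (0.229) was below Cebpd (0.405), while r of Lcn2 ran from 0.833 to 0.906. The labels give the same sex, housing and treatment for a number in every region and do not say what a number stands for.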

How the data were processed

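The deposited values were whole-number read counts per gene, 43346 genes in 454 libraries, made by the authors from 50-base single-end reads of stranded poly(A) libraries, per the labels' protocols. STAR, featureCounts and limma with GRCm38/mm10 are named, without versions, per the submitters' processing notes, and the strand setting of the counting is not given in the sources used here. CPM was computed as counts over the library total, in mega-reads, with a pseudocount of 0.5 on log scales. Tests used edgeR 4.0.16 in R 4.3.3 (filterByExpr, TMM, quasi-likelihood, Benjamini-Hochberg over all genes tested in a region, threshold 0.05), with number series as a covariate where series were pooled. DESeq2 1.42.0 and limma 3.58.1 served as alternatives. The fits were tested on simulated AMY data, with changes placed only in well-counted genes and the same spread set for every gene. That simulation does not cover genes with as few reads as Lcn2, Ch25h and Steap4. The filter kept a gene by its counts per group, so members that passed differ between comparisons. Genes without a symbol (884, with 0.11% of counts) stayed in the totals. The members and the 16 lists (193 genes) were chosen with earlier results of these data known. Named genes are the members, up to 4 genes of each list with the lowest p past the threshold, the genes most like Lcn2 (10 over all regions and 3 in each region), and the genes called in series 1200. Every pair of libraries within a group differed by more than sampling noise.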

Additional observations from a re-analysis of the deposited data

Results flagged for a closer look

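In 6 sets of 4 to 10 libraries of 1 number series, schedule, drug and region, the 8 genes gave 48 tests for a library set far from the rest. Of these 10 marked a library, in 5 of the 6 sets. The marks share libraries and title numbers, and those in series 1200 use values that chose the genes, so their count is not set against chance. Ch25h was the highest of the 8 chronic cocaine libraries of series 1200 in A1210 at 0.785 CPM (the next library had 0.39 CPM), in N1210 at 1.0 CPM (next 0.402) and in V1210 at 0.926 CPM (next 0.39). Socs3 in N1216 of the same series stood at 2.51 CPM, where the next cocaine library had 1.49 CPM. In the Nac chronic saline group of series 500, N524, from an isolated female, a library that stood apart from all other Nac libraries, was set off for 4 genes. It had 0.729 CPM of Lcn2 (next 0.148), 5.9 CPM of Cebpd (next 1.51) and 0.464 CPM of Ch25h (next 0.166), and its Icam1 was the lowest, at 0.0663 CPM (next 1.29). Steap4 stood at 0.861 CPM in N579 (next 0.377) and at 0.587 CPM in P536 (next 0.281), both with chronic saline of series 500.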

How the results depend on the processing

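No call within a region changed its direction under the alternatives run. In series 1200, where the values of the members have no test, their fitted log2 differences moved by less than the spread between libraries under every alternative but the fit over chronic libraries of all series with no series term. That fit gave 2.36 for Lcn2 in VTA (against 3.48), 0.49 for Ch25h and 0.21 for Osmr in PFC, -0.18 for Cebpd in Nac and 0.02 for Icam1 in VTA. Listed genes called in that contrast were 2 in Nac and 1 in PFC with DESeq2, and 0 to 1 in Nac on leaving out numbers, against 0 in the fit reported. DESeq2 called 15 genes in all in Nac and 5 in PFC, and the fit over chronic libraries of all series called 10, 16, 411 and 10 in AMY, Nac, PFC and VTA. Of the ratios, that of Ch25h moved by more than the spread between libraries in AMY (1.61) and Nac (2.32), both without the number of A1210.

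For acute cocaine, listed genes called were 0 in PFC without the numbers of A1045, A1046 and A1063 and with series 1100 alone, against 1. In VTA, against 1, they were 2 with DESeq2, 0 with limma voom, 7 without those numbers, 18 with series 1000 alone and 0 with series 1100 alone. Without series 1200, housing in Nac gave 2 members (Cebpd, 0.42, and Icam1, -0.58), 33 listed genes and 5486 genes in all, against 0 of each. Sex in Nac gave 1 member (Icam1, -0.48), 34 listed genes and 5897 genes without series 1200, and 3 members, 66 listed genes and 8087 genes with series 500 alone, against 0 members, 0 listed genes and 52 genes. In both settings N524, which stood apart, was the only Nac library of the isolated females with chronic saline, and its part was not tested. Listed genes for sex in Nac were also 1 without the libraries that stood apart and 2 with series 1100 alone.

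The sex call of Serpina3n in AMY was lost, at 0 members, in each series alone. Listed genes for sex in AMY, against 14, were 7 without the filter, 7 with limma voom, 1 without series 1200, and 0, 2, 0 and 1 in series 500, 1000, 1100 and 1200 alone. In PFC, against 10, they were 4 without the filter, 18 without the libraries that stood apart, 0 without series 1200, and 0, 1, 0 and 0 in the single series. In VTA, against 1, they were 2 with DESeq2 and 0 without series 1200 and with series 500, 1000 or 1200 alone. All genes called for sex in AMY numbered 423, and 43 without series 1200.

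Chronic saline of series 500 in place of chronic cocaine of series 1000, against acute saline, gave 0, 1 and 2 members in AMY, Nac and PFC, and 57 listed genes in VTA against 86. Listed genes in Nac, against 26, were 12 without the filter, 16 with limma voom and 40 without the numbers of A1045, A1046 and A1063, when 2 members were called there. For chronic cocaine of series 1000 against chronic saline of series 500, listed genes were 1 in AMY without the filter (against 2), 6 with DESeq2 and 1 without the libraries that stood apart in Nac (against 0), and 4 with DESeq2 and 2 with limma voom in VTA (against 1). The median correlation with Lcn2 in PFC was 0.207 in all, 0.309 as Pearson's r, 0.0807 within series 1000 and 0.404 within series 1100. Within series 1200, the median rho across regions was 0.664 for Lcn2, 0.363 for Serpina3n, 0.054 for Osmr, 0.172 for Cebpd, 0.038 for Icam1 and 0.34 for Ch25h. Between regions, with title number as a replicate block in limma voom, the members called were 7, 4, 7, 6, 6 and 7 of 8 (AMY-Nac, AMY-PFC, AMY-VTA, Nac-PFC, Nac-VTA, PFC-VTA), against 6, 3, 6, 6, 5 and 6, the calls gained being Lcn2 in 4 pairs and Osmr between PFC and VTA. Numbers that recur across regions have the same labels, which do not say that they mark the same animal. Without series 1200 the sign turned for Icam1 (AMY minus Nac 0.15, Nac minus PFC -0.2), and, with neither value called, for Cebpd (Nac minus VTA 0.01), Steap4 (AMY minus PFC 0.05) and Lcn2 (PFC minus VTA -0.0, and -0.11 with the block). No paired analysis was possible within a region because its groups share no title number. Low read counts of Lcn2, Ch25h and Steap4 limit every value given for them.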
